A study of Mus musculus with 4 samples.

Results

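The Ly6 genes listed here are *Ly6a*, *Ly6c1*, *Ly6c2*, *Ly6e*, *Ly6d*, *Ly6g*, *Ly6i* and *Ly6k*, 8 of the 55367 gene symbols counted in splenic CD4+ T cells of C57BL/6 mice. They were taken by symbol, in a choice made with earlier results of these data known, and all 8 had a row in every library. RNA of sorted peripheral CD4+ T cells was sequenced in 4 libraries, 2 labelled WT and 2 labelled *Satb1* conditional knockout (cKO). *Satb1* encodes a chromatin organiser of T cells that binds AT-rich DNA. The series describes its knockout mice as *Satb1* F/F with ThPOK-cre or E8I-cre, the labels of these libraries name neither, and the study uses ThPOK-cre, which is active from commitment to the CD4 lineage, for CD4+ cells. The labels give neither age nor sex, nor the Cre or floxed status of the WT mice, and the methods describe young adult mice of mixed sexes for the study in general. The labels do not say what separates the replicates, and the study describes them as biological replicates.

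Ly6 genes encode small, disulfide-rich proteins of the LU (Ly6/uPAR) domain family, most of which are held on the outer cell surface by a glycosylphosphatidylinositol (GPI) lipid anchor. In the mouse they lie side by side in a gene cluster that arose by duplication, and antibodies to them are standard tools for sorting blood cells. Ly6A, also called Sca-1, is used to sort stem cells and rises on activated lymphocytes. Ly6C marks monocytes and subsets of memory T cells, and Ly6G marks neutrophils. Several members are induced by interferons.

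The libraries held between 4495902 and 6555699 gene counts. *Satb1* itself had 5677 and 4390 counts in the libraries labelled WT and 4958 and 3986 in those labelled cKO, so its gene-level count did not separate the labels (edgeR adjusted p = 0.877), and each direction below follows the labels. Other genes did separate them, among these *Foxp3*, the regulatory T cell factor, with 142 and 121 against 405 and 547 CPM (edgeR adjusted p = 0.000447), and *Pdcd1*, which encodes PD-1, with 27.2 and 24.2 against 49.9 and 45.7 CPM (0.0113). *Xist* had 5447 and 4235 counts against 9 and 6, and the Y-linked *Ddx3y* had 0 and 0 against 525 and 597, so genotype and this sex-linked difference cannot be told apart in any value below. The T cell genes *Cd3e* and *Cd4* were abundant in every library, at 788 to 966 and 1183 to 1279 CPM (counts scaled to a common library size), the CD8 T cell gene *Cd8a* was at 4.25 to 6.86 CPM, and its partner *Cd8b1* was at 42.4 and 52.0 CPM in the libraries labelled WT and 27.4 and 22.5 in those labelled cKO (edgeR adjusted p = 0.0201).

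The 8 genes span 397 kb of chromosome 15, from 74762056 to 75159126 on GRCm38, the assembly also called mm10. All are protein coding. Promoter sequence was at hand for 3 of the 8 (RefSeq, GRCm38.p6), and it is shown for *Ly6c1* and *Ly6c2*, whose levels both lay lower in the libraries labelled cKO, and for their neighbour *Ly6g*, which was at the counting floor. Each is the 250 bases before the RefSeq start, read 5′ to 3′, with capitals on matches to TATAAA (the TATA box) and CCAAT (the CCAAT box) on either strand.
Ly6c1 (GRCm38.p6, chr15:75048838-75049087, minus strand): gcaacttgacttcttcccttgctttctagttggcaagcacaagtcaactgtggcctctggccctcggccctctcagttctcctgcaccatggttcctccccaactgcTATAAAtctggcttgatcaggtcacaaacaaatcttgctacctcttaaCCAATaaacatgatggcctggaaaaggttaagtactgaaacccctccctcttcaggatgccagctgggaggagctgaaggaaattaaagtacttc
Ly6c2 (GRCm38.p6, chr15:75111972-75112221, minus strand): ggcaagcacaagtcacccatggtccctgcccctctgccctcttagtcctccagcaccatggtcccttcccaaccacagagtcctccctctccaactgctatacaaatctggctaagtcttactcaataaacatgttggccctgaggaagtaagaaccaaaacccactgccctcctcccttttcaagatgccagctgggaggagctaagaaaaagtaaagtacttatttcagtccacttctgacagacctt
Ly6g (GRCm38.p6, chr15:75155011-75155260, plus strand): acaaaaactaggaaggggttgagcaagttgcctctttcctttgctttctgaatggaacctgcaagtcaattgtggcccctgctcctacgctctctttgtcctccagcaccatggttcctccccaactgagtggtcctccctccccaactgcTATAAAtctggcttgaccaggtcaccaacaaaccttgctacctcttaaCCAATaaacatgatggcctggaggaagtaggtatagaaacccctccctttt
The promoters of *Ly6c1* and *Ly6g* each held 1 TATAAA and 1 CCAAT, and that of *Ly6c2* held neither. These letters stand from -143 to -138 and from -95 to -91 of the *Ly6c1* start, and from -99 to -94 and from -51 to -47 of the *Ly6g* start. Of 32851 promoter windows of the same length, 12.37% held TATAAA and 33.85% held CCAAT. The interferon-linked motifs TTCNNNGAA (GAS) and ISRE (GAAA, any 2 bases, GAAA), searched on both strands and present in 7.02% and 2.977% of the windows, were not found in these 3. Of the aligned bases, with gaps left out, 75.93% were identical between *Ly6c1* and *Ly6c2* (68 gap positions). The share was 83.5% between *Ly6c1* and *Ly6g* (88) and 80.35% between *Ly6c2* and *Ly6g* (154). No entry was at hand for *Ly6a*, *Ly6e*, *Ly6d*, *Ly6i* and *Ly6k*.

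In CD4+ T cells the family was carried by few genes. Per kilobase of exonic sequence, the scale on which genes can be compared with each other, *Ly6e* stood first in every library, at 242 and 237 CPM per kb in the libraries labelled WT and 395 and 316 in those labelled cKO. *Ly6e* made up between 69.9% and 77.0% of the summed per-kb level of the 8 genes. *Ly6a* was at 52.4 and 41.3 CPM per kb in WT-labelled and 80.0 and 97.7 in cKO-labelled libraries. *Ly6c1* was at 37.2 and 32.9 against 25.3 and 25.6 CPM per kb. *Ly6a* was above *Ly6c1* within each library on this scale. The scale takes the full exonic length, although 81.0% of the 50-base words of *Ly6a* and 67.2% of those of *Ly6c1* occur in no other gene and reads from shared words are not counted, so the order of these genes in the libraries labelled WT is not resolved. *Ly6c2* followed in the libraries labelled WT, at 9.21 and 9.73 CPM per kb. In those labelled cKO it was at 2.36 and 2.48, below *Ly6d* in cKO 1 (7.43) and below *Ly6k* in cKO 2 (3.59). *Ly6k* and *Ly6d* lay between 0.811 and 7.43 CPM per kb over the 4 libraries. Their ranges overlapped within each label, and with that of *Ly6c2* under the cKO label, so these orders are not resolved. *Ly6i* did not exceed 0.552 CPM per kb and *Ly6g* 0.226.

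**Figure D1:**
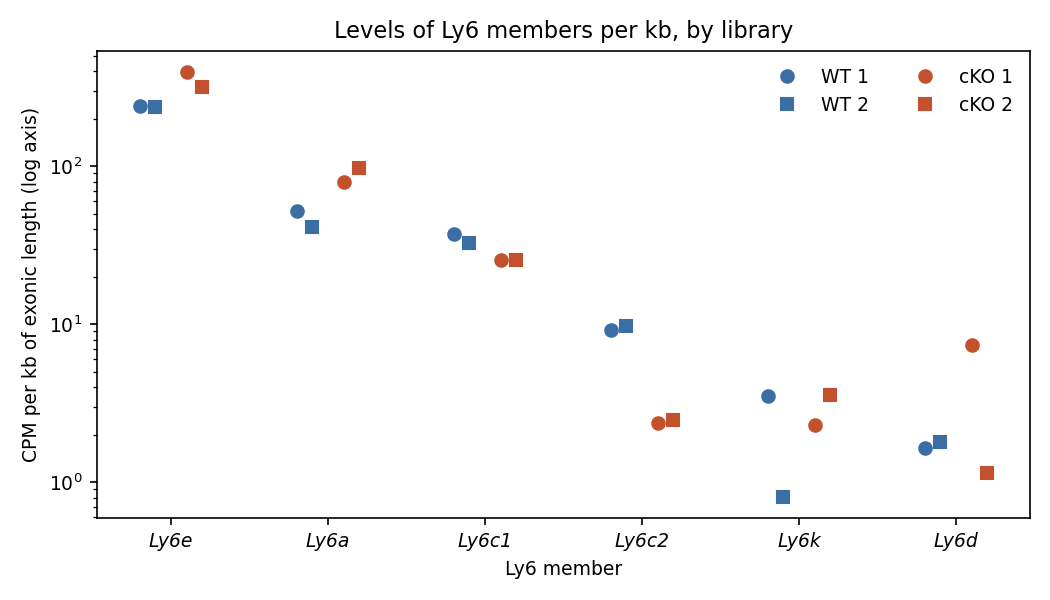
Levels of 6 Ly6 genes on a log axis, in CPM per kb of exonic length, with 1 point per library (blue WT label, red cKO label, circle replicate 1, square replicate 2). *Ly6e* is first in every library, from 237 to 395 CPM per kb, and *Ly6i* and *Ly6g*, at or near 0, are left out.

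The comparison of genotype labels asks which of these surface antigens differed when *Satb1* was targeted. *Ly6a* was higher and *Ly6c2* lower in the libraries labelled cKO, by 1.88-fold and 3.89-fold, and these were the members that passed the test. *Ly6e* and *Ly6c1* were 1.48-fold higher and 1.38-fold lower, and did not pass the threshold. Of the 5 members with enough counts to test, 2 were called at an edgeR adjusted p under 0.05, beside 4.30% of all 12403 genes tested. WT-labelled and cKO-labelled libraries did not overlap for 4 of the 5, beside 50.3% of all tested genes (24.8% with cKO above WT, 25.4% with cKO below WT). Without WT 2 only *Ly6c2* was called, 4 members were called without cKO 1, and 5 without cKO 2. *Ly6d*, *Ly6g* and *Ly6i* did not pass the filter on low counts in the fit of all libraries.

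**Figure D2:**
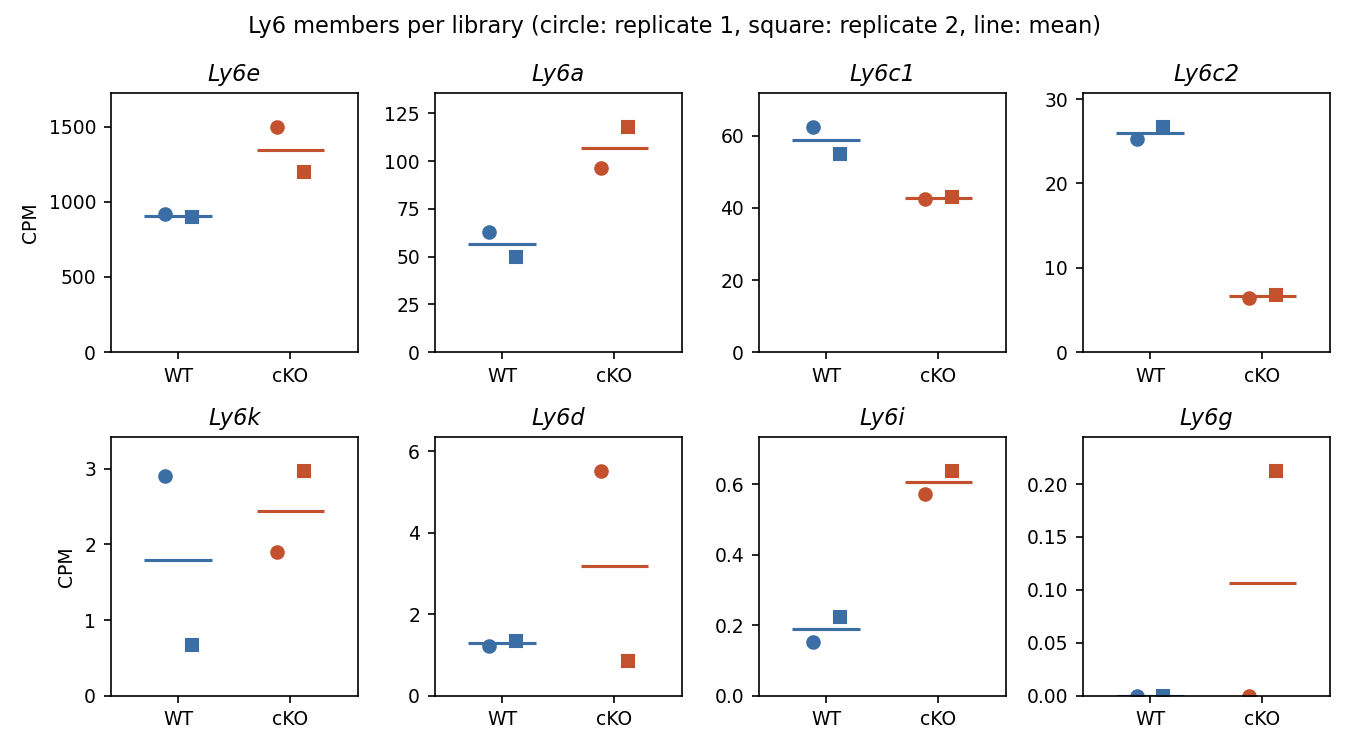
Level of each of the 8 Ly6 genes in CPM, with 1 point per library and a line at the mean of each label's 2 libraries. Both cKO-labelled points lie above both WT-labelled points for *Ly6e* and *Ly6a* and below them for *Ly6c1* and *Ly6c2*, while *Ly6i* and *Ly6g* rest on 0 to 3 counts per library.

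*Ly6a* (ENSMUSG00000075602.10, chromosome 15, 74994877 to 74998031, minus strand) encodes Ly6A, or Sca-1. Its counts were 413 (WT 1), 222 (WT 2), 506 (cKO 1) and 554 (cKO 2). In CPM these were 63.2 and 49.7 in the libraries labelled WT and 96.4 and 118 in those labelled cKO. Both cKO-labelled libraries were above both WT-labelled ones. The mean rose from 56.5 ± 9.50 (SD, n = 2) to 107 ± 15.1 CPM (SD, n = 2). This is a log2 fold change of 0.91 (SE 0.15, edgeR quasi-likelihood adjusted p = 0.0128), with a 95% interval of 1.49 to 2.39 for the fold. Of all tested genes, 2.35% were called in this direction. Without WT 2 the log2 fold change was 0.76 and did not pass the threshold. Without cKO 2 it was also 0.76. Each of these fits has 1 library for a label. Calls over all tested genes fell without WT 2 and rose without cKO 2, so passing or not in these fits says little.

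*Ly6e* (ENSMUSG00000022587.14, chromosome 15, 74955051 to 74959905, plus strand) encodes Ly6E, also known as thymic shared antigen 1, an interferon-inducible antigen of immature thymocytes. Its counts were 5991 and 4010 in the libraries labelled WT and 7849 and 5630 in those labelled cKO. Expression was 916 and 898 CPM against 1496 and 1197 CPM. The libraries labelled WT were nearly equal, and cKO 1 stood highest. The log2 fold change was 0.57 (SE 0.14), and the edgeR adjusted p = 0.0535 did not pass. Its fold had an interval from 1.20 to 1.84. *Ly6e* passed in 8 of 13 alternative settings and kept its direction in all 13, with adjusted p from 1.91e-08 to 0.460, so its call depends on the setting.

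Whether *Ly6a* and *Ly6e* differed in unlike measure could not be resolved. The share of *Ly6a* in the summed counts of the pair was 6.45% and 5.25% in the libraries labelled WT and 6.06% and 8.96% in those labelled cKO. The labels overlapped (exact permutation p = 0.667, two-sided).

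*Ly6c2* (ENSMUSG00000022584.14, chromosome 15, 75108158 to 75111970, minus strand) encodes 1 of the 2 near-identical forms of the Ly6C antigen of monocytes and memory T cells. Its counts were 165 (WT 1), 119 (WT 2), 34 (cKO 1) and 32 (cKO 2). Expression was 25.2 and 26.7 CPM in the libraries labelled WT and 6.48 and 6.80 CPM in those labelled cKO. The libraries of each label were close to each other and far from those of the other label. The mean fell from 26.0 ± 1.01 (SD, n = 2) to 6.64 ± 0.228 CPM (SD, n = 2). This is a log2 fold change of -1.96 (SE 0.20, edgeR adjusted p = 0.00151), and it passed in all 13 alternative settings. The level was 3.89-fold lower, with an interval from 2.84 to 5.34. Genes called in this direction were 1.95% of those tested. In a bulk sample of this kind, fewer cells that carry a transcript and less of it per cell cannot be told apart.

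*Ly6c1* (ENSMUSG00000079018.10, chromosome 15, 75044018 to 75048830, minus strand) encodes the other form of Ly6C, which is also abundant on endothelium. Its counts were 408 and 246 in the libraries labelled WT and 223 and 202 in those labelled cKO, or 62.4 and 55.1 against 42.5 and 42.9 CPM. Both cKO-labelled libraries were below both WT-labelled ones. The log2 fold change was -0.46 (SE 0.12), and the edgeR adjusted p = 0.0796 did not pass the threshold. It passed in 5 of 13 alternative settings and kept its direction in all 13, with adjusted p from 0.0254 to 0.545, the highest without WT 1 (0.545), in DESeq2 (0.419) and without WT 2 (0.299). The level was 1.38-fold lower, with an interval from 1.13 to 1.68. Of the 7 endothelial markers, *Cdh5* had 9 and 7 counts in the libraries labelled WT and 3 and 0 in those labelled cKO, while *Kdr* and *Emcn* were at 0 throughout. *Egfl7*, *Esam* and *Tek* had 0 to 4 counts, and *Pecam1*, which T cells also express, lay between 317 and 376 CPM and made up most of the list's sum of 319 and 366 against 377 and 358 CPM. Their part in the level of *Ly6c1* was not tested.

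*Ly6c2* took a smaller share of the *Ly6c* pair in both libraries labelled cKO. *Ly6c2* made up 28.8% of the counts of the pair in WT 1 (Wilson 95% interval 25.2 to 32.6) and 32.6% in WT 2 (28.0 to 37.6). In cKO 1 the share was 13.2% (9.62 to 17.9) and in cKO 2 it was 13.7% (9.86 to 18.7). The intervals of WT-labelled and cKO-labelled libraries do not overlap, but they cover counting error only, and 2 libraries against 2 cannot give an exact permutation p under 0.333, the value found here (two-sided). Sequence shared by the pair limits this comparison. Of the 50-base words in annotated transcripts, the length of the reads, 67.2% of those of *Ly6c1* and 85.5% of those of *Ly6c2* occurred in no other gene. The pair shared 379 words, and *Ly6c1* and *Ly6a* shared 195. Reads that align to more than 1 place were not counted to genes, so reads from shared words are missing from these counts. For *Ly6e* and *Ly6d*, 100% of the words were found in no other gene.

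The remaining members were scarce. *Ly6k* (ENSMUSG00000044678.11, chromosome 15, 74796874 to 74799986), best known from testis, had 19 and 3 counts in the libraries labelled WT and 10 and 14 in those labelled cKO. The labels overlapped, and the log2 fold change of 0.32, with an SE of 0.60, did not pass (edgeR adjusted p = 0.833, interval of the fold 0.48 to 3.22). It turned negative without WT 2, at -0.26, and without cKO 2, at -0.02. Exons of *Ly6k* overlap the antisense transcript *Gm17189* over 395 bases. No source used here says whether strand was used in counting, so its value is uncertain.

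*Ly6d* (ENSMUSG00000034634.7, chromosome 15, 74762056 to 74763620), a marker of the B lineage from its progenitors on, had 8, 6, 29 and 4 counts in WT 1, WT 2, cKO 1 and cKO 2. It was high in cKO 1 and no higher in cKO 2 than in the libraries labelled WT, and it was not tested. The 10 B cell markers listed for this comparison were also highest in cKO 1 in sum, and singly except for *Cd22* (48 counts in cKO 1, 50 in cKO 2), with a summed level of 15.3 and 17.7 CPM in the libraries labelled WT, 64.8 in cKO 1 and 27.0 in cKO 2. Among them *Cd79a*, a B cell receptor subunit, had 9, 4, 55 and 8 counts. All 10 had at least 1 count in some library, and their part in the level of *Ly6d* was not tested.

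*Ly6g* (ENSMUSG00000022582.4, chromosome 15, 75155240 to 75159126), which defines neutrophils at the cell surface, had 0, 0, 0 and 1 counts. A library at 0 counts still allows 3, which is 0.458 to 0.667 CPM here before scaling. The 13 neutrophil markers had a summed level of 1.68 and 5.60 CPM in the libraries labelled WT and 52.4 and 29.8 CPM in those labelled cKO, and 4 of the 5 tested (*S100a9*, *Ltf*, *Ngp* and *Lcn2*) were called higher, beside 2.35% of all tested genes. *Ly6i* (ENSMUSG00000022586.11, chromosome 15, 74979534 to 74983430) had 1, 1, 3 and 3 counts. Both labels were at or under the floor for *Ly6g* and *Ly6i*, so no fold is given.

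Position in the cluster was compared with direction. Going along the chromosome from *Ly6e*, *Ly6a* starts 43.0 kb on, *Ly6c1* a further 50.8 kb, *Ly6c2* a further 63.1 kb and *Ly6g* a further 43.3 kb. Between *Ly6a*, which was called higher, and *Ly6c2*, which was called lower, the distance is 114 kb. Of 39 genes annotated between 100 kb before the first and 100 kb after the last member, 37 had a row in the count tables, 23 had at most 3 counts in every library and 10 were tested. The called genes of this window were the members *Ly6a* and *Ly6c2*. Of the 5 tested genes that are not members, *Them6* had a log2 fold change of -0.29 (edgeR adjusted p = 0.334), *Lynx1* of 0.92 (0.270), and *Arc*, *Jrk* and *Gm39556* between 0.12 and 0.36, with adjusted p-values from 0.743 to 0.867.

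**Figure D3:**
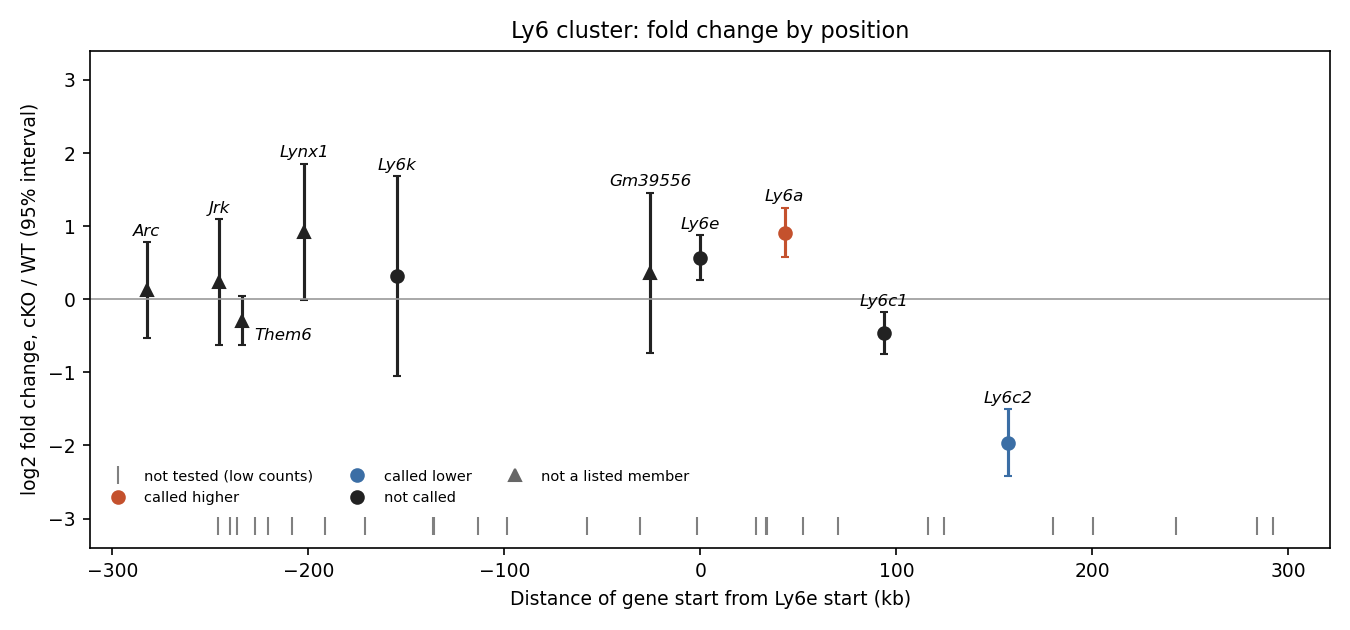
Log2 fold change (cKO label over WT label, with its 95% interval) of each tested gene around the Ly6 cluster against the distance of its start from that of *Ly6e* in kb. Ticks at the bottom mark genes with too few counts to test, and *Ly6a* (red, 0.91) and *Ly6c2* (blue, -1.96) are the called genes.

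Relatives of the listed genes were mostly silent here. Of 31 other genes with an LU domain or in the cluster, 19 had 0 counts in every library and 3 were tested, of which 0 were called (edgeR, 0 at an unadjusted p under 0.05). Among these, *Plaur*, the urokinase receptor, had 70 and 28 counts in the libraries labelled WT and 35 and 6 in those labelled cKO. The enzymes that build and attach the GPI anchor were tested as a further list. Of 28 tested, *Piga*, the X-linked catalytic subunit of the first step, was lower, from 28.3 and 30.5 to 16.2 and 18.7 CPM (log2 fold change -0.75, edgeR adjusted p = 0.0408), and the other 27 did not pass. That is 3.57% of the list, beside 4.30% of all tested genes. Neither *Piga* nor any other gene of this list was called without WT 1, without WT 2, in DESeq2 or with libraries thinned to the smallest total. The median log2 fold change of the list was 0.03, beside -0.0015 over all tested genes.

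Genes induced by interferon, as *Ly6a* and *Ly6e* can be, did not share a direction. Of 40 tested, 0 were called (edgeR, 3 at an unadjusted p under 0.05, DESeq2 0), beside 4.30% of all tested genes. Of these 40, 21 were fitted higher and 19 lower, and the median was 0.05. Their summed level was 3672 and 3511 CPM in the libraries labelled WT, 3111 in cKO 1 and 4434 in cKO 2, so the libraries labelled cKO lay on either side. Calls in this list lay on the higher side without cKO 1 and mostly on the lower side without cKO 2. Calls over all tested genes also rose in both fits.

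Of the genes of activated or memory T cells, 7 of 18 tested were called lower and 1 higher, beside 1.95% and 2.35% of all tested genes. Among those lower were *Nkg7*, *Ccl5*, *Eomes*, *S100a6*, *Tbx21* and *Itgae*, with log2 fold changes from -1.61 for the cytotoxic granule gene *Nkg7* to -0.92 for the integrin *Itgae*. *Tnfrsf4*, which encodes the costimulator OX40, was higher at 0.75, and *Cd44* was 0.00352. The list median was -0.70. The number of calls in this list depended on the library left out, being fewer without WT 2 and more without cKO 2. The number of calls over all tested genes moved in the same way. Of genes of naive T cells, *Dapl1*, *Ccr9* and *Ccr7* were lower, at -2.39, -1.23 and -0.62, and the interleukin 7 receptor gene *Il7r* was higher, at 1.04, among 14 tested (edgeR adjusted p from 4.76e-05 to 0.0257 for these 4, list median -0.16). Of the 6 tested markers of CD8 T or NK cells, *Gzma*, *Cd8b1* and *Prf1* were called lower, and 0 higher. Their 8-gene sum was 133 and 143 CPM in the libraries labelled WT and 73.6 and 51.2 in those labelled cKO. Of these markers *Klra8* was at 0 throughout. The part of these cells in the fall of *Ly6c2* was not tested. Without cKO 1 the naive list had more calls, as did all tested genes. The summed level of 10 monocyte or macrophage markers was higher in the libraries labelled cKO, at 93.2 and 53.8 against 35.9 and 42.8 CPM. Of the 6 tested, 4 were fitted higher, and of these *Lyz2* and *Cybb* were called, beside 2.35% of all tested genes. The other 2, *Cd68* (log2 fold change -0.29) and *Itgam* (-0.85), were fitted lower and not called. The part of monocytes or macrophages in the level of *Ly6c2* was not tested. Of the other marker lists, CD4 T cells had *Zbtb7b* higher and *Thy1* lower among 11 tested, B cells *Pax5* higher among 4, and plasmacytoid dendritic cells *Tcf4* higher and *Ccr9* lower among 3. Plasma cells (3 tested) and endothelium (1 tested) had 0 calls in edgeR, with 1 and 0 at an unadjusted p under 0.05.

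**Figure D4:**
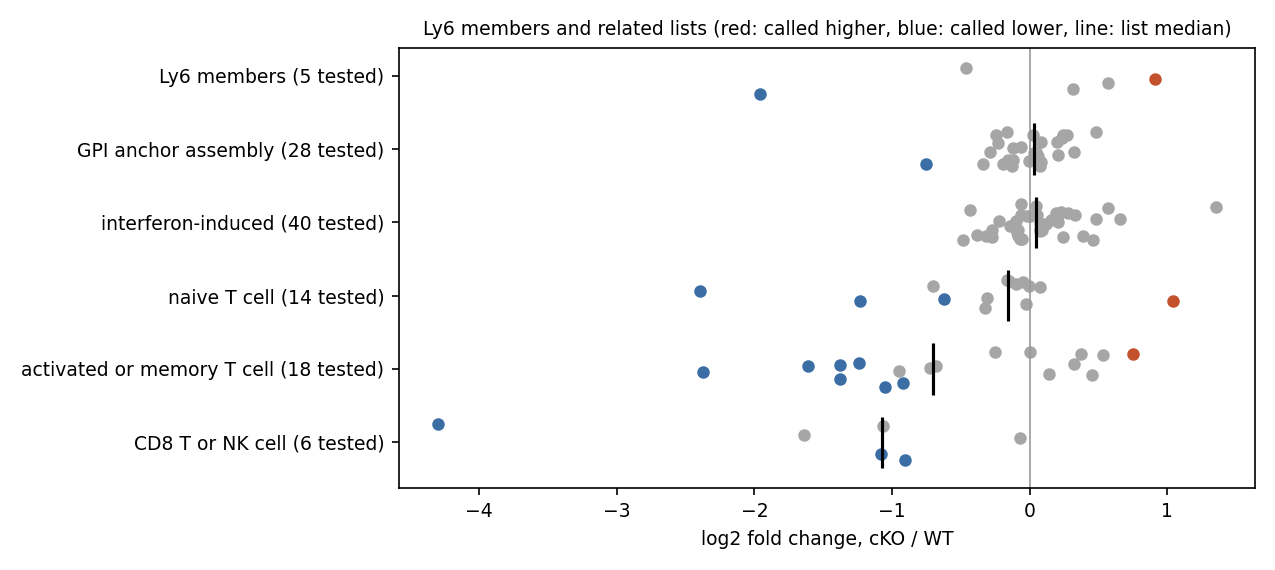
Log2 fold change (cKO label over WT label) of the 5 tested Ly6 genes and of each tested gene in 5 lists, with called genes in red (higher) or blue (lower) and a line at each list's median. The interferon list spreads around 0 with 0 calls, while 7 of 18 genes of activated or memory T cells lie among the calls on the lower side.

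The tested genes whose level over the 4 libraries was nearest to that of each member were found by the root mean square distance of centred log2 CPM. They were *Gm15542*, *Phlpp1* and *Gm26642* for *Ly6a* (distances 0.034 to 0.048) and *Lmo4*, *Neurl3* and *Pik3r1* for *Ly6e* (0.010 to 0.016). For *Ly6c1* they were *Gm7962*, *Usp5* and *Incenp* (0.014 to 0.018). For *Ly6c2* they were *Gm11738*, *Ndufs5-ps* and *Gm3375* (0.064 to 0.10), of which the first 2 had the same counts in every library. For *Ly6k* they were *Ehbp1*, *Gm29093* and *Gm14277* (0.14 to 0.15). With 4 libraries and 12403 genes these are descriptions of shape. None of the 15 was another Ly6 gene.

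**Figure D5:**
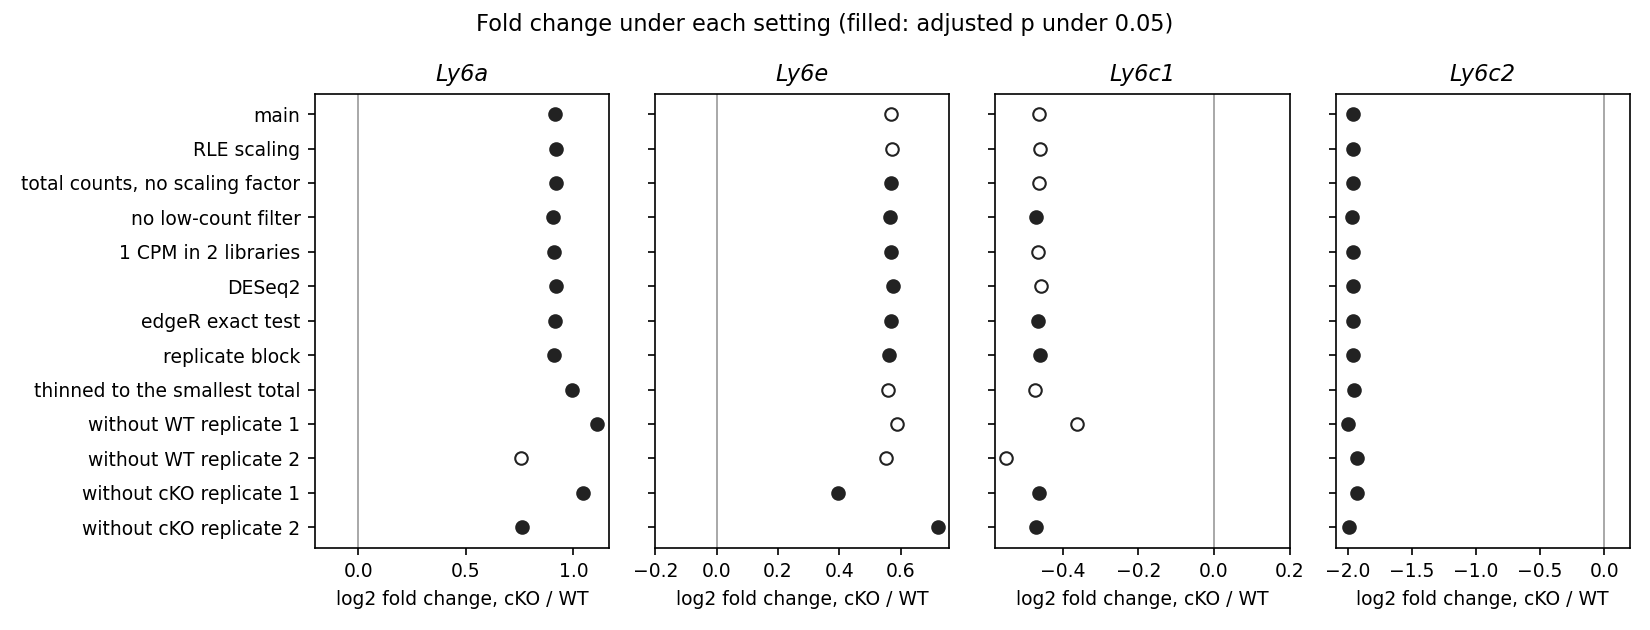
Log2 fold change (cKO label over WT label) of 4 Ly6 genes under the reported analysis (top) and 12 alternatives, filled where the adjusted p was under 0.05. Every value keeps its sign, *Ly6c2* is filled throughout, *Ly6a* is open without WT replicate 2, and *Ly6e* and *Ly6c1* change between open and filled.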

How the data were processed

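RNA was measured in 4 libraries of splenic CD4+ T cells, grouped by the genotype and replicate number in their labels. The authors aligned 50-base reads to mm10 with HISAT2 2.1.0 and deposited the raw count of reads per gene symbol from HTSeq (0.11.1 in the processing notes). The annotation and strand setting are not given in the sources used here. Summary lines of the counter were left out. Reads outside annotated features made up 59.4% to 64.5% of reads aligned to 1 place.

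Positions, exonic lengths and transcripts came from GENCODE M21 (GRCm38), which held 53292 of the 55367 symbols. Genes were filtered with filterByExpr, scaled by TMM and tested with the edgeR 4.0.16 quasi-likelihood F test (R 4.3.3, two-sided, no covariate), with Benjamini-Hochberg adjustment over 12403 genes and a threshold of 0.05. CPM uses the scaled library sizes. The SE is the log2 fold change over the square root of F, and intervals are at 0.95. They cover counting error and the spread between libraries. Reads carry no molecular identifiers. Replicates differed by more than sampling noise (chi-square per degree of freedom 3.00 and 7.07). Likeness used a pseudocount of 0.5 CPM. The procedure was tested on simulated data.

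Named genes are the members, the called genes of each list or the window (at most 10 each), and the 3 nearest genes per tested member. Some items are not reported here. Some further genes were named after their values were seen: *Foxp3*, *Pdcd1*, *Cd8a*, *Cd79a*, *Cd22*, the endothelial markers, *Plaur*, *Klra8*, *Cd44* and the uncalled genes of the window. Lists held relatives with an LU domain, GPI anchor enzymes, interferon-induced, memory and naive T cell genes and markers of other cells. Members and lists were chosen with earlier results of these data known. Scaling, filter, test, replicate block, depth, threshold and each library were varied, with DESeq2 1.42.0 as another test. Plots used matplotlib 3.10.9.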

Additional observations from a re-analysis of the deposited data

How the results depend on the processing

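All alternatives were planned. The 533 called genes became 1367 without a low-count filter, 1044 in the edgeR exact test and 153 at an adjusted p under 0.01, and 180 (without WT 2) to 1790 (without cKO 2) on leaving out 1 library, with 1491 without cKO 1. The count of Ly6 members called, 2, became 4 without a filter and in the exact test, 1 at an adjusted p under 0.01, and was 1 to 5 with 1 library left out, with *Ly6d* among the 5 without cKO 2. Replicate numbers name no shared animal or day (correlation of deviations between libraries of 1 number 0.0642). With the replicate block 1165 genes were called, including all 533, and 4 members. The block put *Ly6c1* at -0.46 (edgeR adjusted p = 0.0292) and *Ly6e* at 0.56 (0.0106).

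*Ly6a* did not pass at an adjusted p under 0.01 (0.91), and was 0.76 to 1.11 on leaving out 1 library. *Ly6c1* passed without a filter (-0.47) and in the exact test (-0.46), and ran from -0.55 to -0.36. *Ly6e* passed with total counts (0.57), without a filter (0.56), with 1 CPM in 2 libraries (0.57), in DESeq2 (0.57) and in the exact test (0.57), and ran from 0.40 to 0.72. *Ly6k* ran from -0.26 to 1.82, and was -0.02 without cKO 2. *Ly6c2* was called under all 13. Without a filter *Ly6d* had an edgeR adjusted p of 0.116.

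For the lists, LU relatives had 1 call without a filter and 0 to 2 without a library. GPI genes had 0 calls in DESeq2, 0 when thinned to 4495902 counts, and 0 to 2 without a library. Interferon genes had 5 calls without a filter, 1 in the exact test, 3 with the replicate block and 0 to 15 without a library. Memory genes had 14 without a filter, 14 with the replicate block and 5 to 15 without a library, and naive genes 7 without a filter and 3 to 9 without a library. Why these counts shift was not tested, beyond the fewer samples or other genes that a setting itself brings. A fit without 1 library assumes that the lone library of its label varies like the others.

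With at most 3 counts per library, a difference in *Ly6g* or *Ly6i* was not detectable at this depth.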
